A study of Mus musculus with 3 samples.

Results

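The HOX genes are described here in 3 primary cultures of mouse ocular pigment epithelium. Members were all probe sets whose single annotated gene symbol starts with Hoxa, Hoxb, Hoxc or Hoxd and a number, which gave 53 of 45101 probe sets, for 36 of 18193 genes. Of these, 33 genes (48 probe sets) are protein-coding HOX genes and 3 genes (5 probe sets) are antisense RNAs of the clusters, which are kept apart below. The RefSeq table lists 39 protein-coding HOX genes in the mouse. Of the other 6, Hoxb8 and Hoxd4 were present only in probe sets shared with a second HOX gene, and the other 4 are not analysed here.

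HOX genes encode homeodomain transcription factors and lie in 4 clusters, A to D. In the embryo they are switched on in an order that follows their order in the cluster, with low-numbered paralog groups reaching the hindbrain and high-numbered groups kept to the rear of the trunk, the limb buds and the tail. The forebrain, the optic cup that forms the pigment epithelium, and the cranial neural crest in front of the hindbrain develop outside the HOX domain, and cells such as fibroblasts keep much of their HOX pattern in culture. Polycomb proteins hold the clusters silent in cells that do not use them, and the TALE homeodomain proteins of the Pbx, Meis and Pknox families bind DNA together with HOX proteins.

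The study compared pigment epithelium cultured from iris (IPE), ciliary body (CBPE) and retina (RPE), and its title asks about thrombospondin-1 and T cells. All donors were adult C57BL/6 mice of 6 to 8 weeks, with no genetic change or drug named. The IPE and CBPE cultures were kept in RPMI 1640 with 10% fetal bovine serum, and RPE in DMEM with 20%. Effects of medium and of tissue cannot be told apart where RPE is compared with the others. All 3 cultures spent the last night before RNA extraction without serum. The labels give more than 99% cytokeratin-positive cells for IPE, and more than 95% after 14 days for CBPE and RPE. Each culture is 1 array, so no value has a replicate error and no test between cultures could be made. How many animals or dishes went into an array is not stated in the labels used here. In such bulk RNA, fewer cells of a type and less RNA per cell cannot be told apart.

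Signals of pigment genes and of markers of other cells were found in all 3 cultures. Of 10 pigment markers, 9, 7 and 8 lay above the array median in IPE, CBPE and RPE, against 63.1%, 65.5% and 64% of all genes. Dct, Pmel and Oca2 were under the median in CBPE, at 2.0, 16.8 and 14.5. Tyrp1, an enzyme of melanin synthesis, was at a signal of 1388, 67.2 and 550.0 in IPE, CBPE and RPE. Of 7 markers of retinal pigment epithelium, 3, 4 and 3 lay above the median, Rdh5 and Otx2 on all arrays. Rpe65, the isomerase that defines mature retinal pigment epithelium, stayed at 1.0, 1.0 and 2.4, under the median of every array. Of 10 fibroblast markers, 8, 10 and 10 lay above the median, with Col1a1 at 3481, 8747 and 5603. Of the 4 tendon markers, 2, 4 and 4 did so, and Myh2, a skeletal muscle myosin, was at 32.8, 1363 and 808.8. Of 11 skeletal muscle markers, 2, 5 and 6 were above the median, and the myogenic regulators Myod1, Myog, Myf5, Myf6 and Pax7 were under it on all arrays.

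The deposited values are linear intensities, with nearly the same trimmed mean on each array. The median of the non-control probe sets was 14.5, 17.3 and 16.8 in IPE, CBPE and RPE, and this line was used as the floor of each array. A second line came from 27 bacterial control probe sets whose RNA is in no sample, which reached at most 7.9, 20.2 and 16.6. Probe sets respond differently to the same amount of RNA, so a signal is compared here between arrays or with its array's line. Brightness only chose which genes are shown, and a summed signal of a list can rest on a few probe sets. No array of a tissue known to express HOX genes is among the 3, so whether each probe set detects its transcript was not tested.

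Most HOX genes were at or near the background of all 3 arrays. Only 2 of 33 lay above the array median in IPE (6.06%), 6 in CBPE (18.2%) and 3 in RPE (9.09%). Over all genes the same line was passed by 63.1%, 65.5% and 64%. By probe set, 2, 6 and 3 of 48 passed it, against 49.9%, 49.9% and 50% of all non-control probe sets. Above the brightest absent control lay 6, 4 and 3 of the 48, against 62.4%, 46.1% and 50.3%. Altogether 8 of the 33 genes were above the median on at least 1 array and none on all 3, against 73.4% and 56.3% of all genes. The other 25 ranged from 0.3 to 9.4 in IPE, from 0.9 to 15.2 in CBPE and from 0.6 to 13.2 in RPE.

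**Figure D1:**
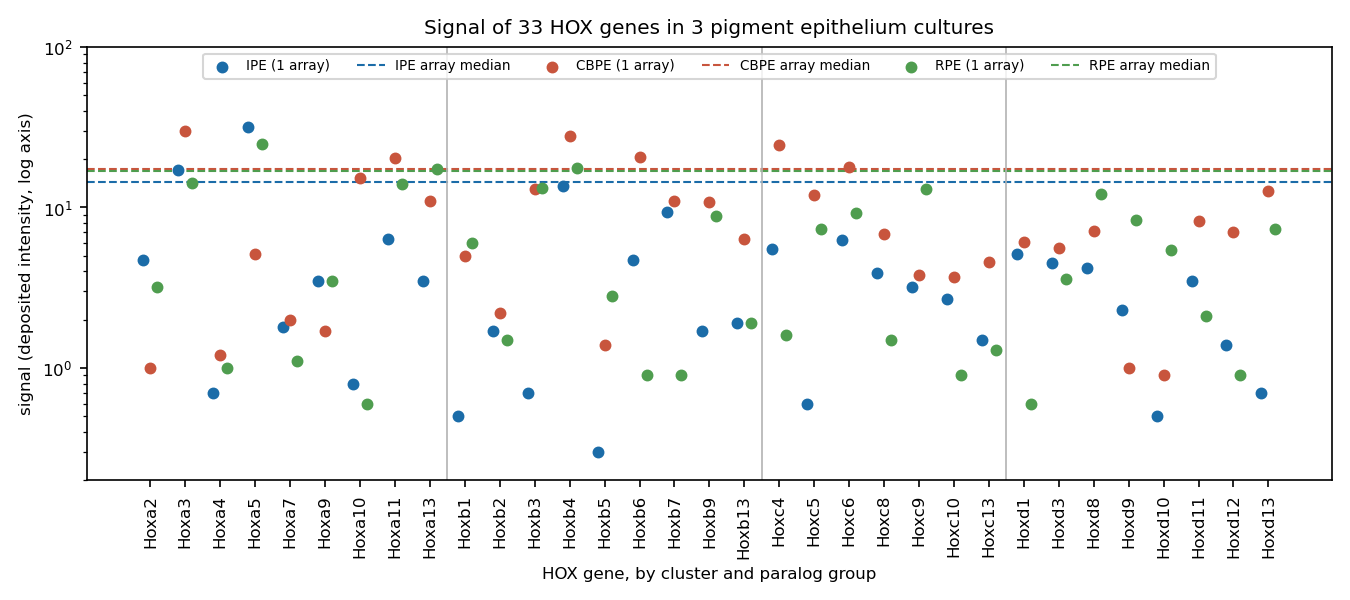
Signal of each of the 33 HOX genes (log axis, deposited linear intensity) on the IPE, CBPE and RPE arrays, 1 array each, ordered by cluster and paralog group, with vertical lines between clusters. Dashed lines mark the array medians of 14.5, 17.3 and 16.8, and 2, 6 and 3 genes lie above them.

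The regulatory DNA of the 2 members with the highest mean log2 signal, Hoxa5 and Hoxa3, is shown because these were the HOX genes furthest above the floor, each above the median on 2 of 3 arrays. Each sequence is the 250 bases before the annotated start in RefSeq build GRCm38.p6, read 5′ to 3′ on the minus strand, which both genes lie on, with every CG dinucleotide in capitals. The Hoxa5 stretch lies at chr6:52204588-52204837 and holds 28 CG, and the Hoxa3 stretch lies at chr6:52213068-52213317 and holds 18.
Hoxa5: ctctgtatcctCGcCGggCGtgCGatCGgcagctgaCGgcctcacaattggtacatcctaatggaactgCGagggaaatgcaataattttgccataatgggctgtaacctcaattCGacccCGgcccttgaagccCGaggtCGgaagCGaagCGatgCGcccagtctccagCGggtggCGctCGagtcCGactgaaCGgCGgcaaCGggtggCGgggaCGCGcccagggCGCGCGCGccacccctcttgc
Hoxa3: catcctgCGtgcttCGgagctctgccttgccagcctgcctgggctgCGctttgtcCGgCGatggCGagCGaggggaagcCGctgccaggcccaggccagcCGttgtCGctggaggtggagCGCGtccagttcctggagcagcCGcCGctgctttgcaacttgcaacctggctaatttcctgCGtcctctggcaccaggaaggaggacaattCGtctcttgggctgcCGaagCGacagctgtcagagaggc

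A promoter of 300 bases, from 250 before to 50 after the start, was matched for 19 of the 33 HOX genes and for 14452 of all genes. The motif searched was CG, which reads the same on both strands, and 94.6% of all promoters in the table hold it at least once. The HOX promoters held from 4 CG in Hoxa9 to 45 in Hoxa13, with a median of 15 against 17 over all genes. Hoxa13 and Hoxd13, both genes of the last paralog group, had the highest GC content, at 81.0% and 74.3%. Of the 8094 genes with at least 15 CG, 83.3%, 83.3% and 83.2% lay above the array median in IPE, CBPE and RPE. Of the 10 HOX genes with at least 15, 2 did so on each array. The CG count is a description of these windows, and its part in the signals was not tested.

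By cluster, the 8 genes above the median on at least 1 array were 4 of 9 measured in HOX A, 2 of 9 in HOX B, 2 of 7 in HOX C and none of 8 in HOX D. The highest HOX D signals were 15.6, for a second probe set of Hoxd8 in CBPE, and 12.6, for Hoxd13 in CBPE. By position, the 8 genes were 1 of 7 in paralog groups 1 to 3, 5 of 12 in groups 4 to 8 and 2 of 14 in groups 9 to 13. Of all genes, 73.4% were above the median on at least 1 array. No cluster and no range of groups therefore had most of its measured members above the line.

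In the front groups, which pattern the hindbrain and neck, Hoxa3 had signals of 17.2, 29.9 and 14.3 in IPE, CBPE and RPE. It was above the median in IPE and CBPE and below it in RPE, and CBPE was 1.74-fold above IPE. Hoxa3, needed for neck organs such as thymus and parathyroid, has 3 further probe sets, and none of them passed the median on any array. Hoxa2, which sets the identity of the second branchial arch, was at 4.7, 1.0 and 3.2. Hoxb1, a marker of a single hindbrain segment, was at 0.5, 5.0 and 6.0. These and the other 4 genes of the front groups stayed under every median.

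Among the middle groups, Hoxa5, a regulator of lung and neck skeleton development, was at 31.8, 5.1 and 24.8 in the same order. It was above the line in IPE and RPE, and these differed 1.28-fold. IPE was at least 1.57-fold and RPE at least 1.23-fold above CBPE, with the dim CBPE signal set to the 20.2 that absent controls reached there. The Hoxa5 signal came from a probe set whose name marks possible matches to several transcripts. The other Hoxa5 probe set, at 0.4, 1.1 and 7.5, passed no median.

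Hoxb4, known for its role in blood stem cells, was at 13.7, 27.8 and 17.7. CBPE was at least 1.92-fold above IPE and 1.57-fold above RPE. These signals were above the brightest absent control on all 3 arrays (7.9, 20.2 and 16.6), which held for no other HOX probe set. The second Hoxb4 probe set, at 7.0, 5.9 and 10.2, was under the median and the brightest absent control on every array. The difference between cultures therefore rests on 1 of the 2 probe sets.

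Hoxc4 was above the line in CBPE alone, at 24.4 against 5.5 in IPE and 1.6 in RPE. Hoxb6 likewise was at 4.7, 20.5 and 0.9, its CBPE value just above the 20.2 of the absent controls. The name of its only probe set marks possible matches to several transcripts. Hoxc6, a gene of the thoracic region, was at 6.3, 17.9 and 9.3, and its CBPE value is under the 20.2 of the absent controls. CBPE was at least 1.68-fold and 1.41-fold above IPE for Hoxc4 and Hoxb6. CBPE was at least 1.45-fold and 1.22-fold above RPE for the same genes.

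Of the rear groups, which pattern lower trunk, limbs and the genital tract, Hoxa11 was at 6.4, 20.2 and 14.0, its CBPE value equal to the brightest absent control. Hoxa13 was above the line in RPE alone, at 3.5, 11 and 17.4. Its RPE value was just above the median of 16.8 and the brightest absent control of 16.6. The remaining 12 stayed under the median on every array. They include Hoxc10, a lumbar and hindlimb gene, at 2.7, 3.7 and 0.9, Hoxd10 at 0.5, 0.9 and 5.4, and Hoxb13, a gene of the tail bud and prostate, at 1.9, 6.4 and 1.9.

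Of the 11 HOX genes with more than 1 probe set, only Hoxa3, Hoxa5, Hoxb4 and Hoxc6 had any probe set above a median, and each of these had exactly 1. The 3 probe sets shared by pairs of HOX genes, Hoxd3 with Hoxd4 and Hoxb7 with Hoxb8, lay between 0.6 and 8.8. The antisense RNAs Hoxa11os, Hoxb5os and Hoxd3os1 had no probe set above a median, with signals of at most 10.4, 17.0 and 16.2 in IPE, CBPE and RPE.

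No HOX gene differed at least 2-fold between any 2 cultures, counting a gene when at least 1 of the 2 signals was above its array median and setting lower signals to that median. Over all genes, 17.1% differed between CBPE and IPE, 13.9% between RPE and IPE and 5.66% between RPE and CBPE. By direction these were 8.28% higher and 8.84% lower in CBPE than IPE, 6.74% and 7.16% in RPE against IPE, and 2.65% and 3.01% in RPE against CBPE. The highest HOX signals were 31.8, 29.9 and 24.8 in IPE, CBPE and RPE. Only 29.9, for Hoxa3, was 2-fold above another array's median, that of IPE, where Hoxa3 itself was above the line. Besides Hoxa3, no HOX gene could therefore be called by this rule, so the 0 is no measure of likeness between cultures. With genes under both medians left out, 7, 4 and 8 HOX genes remained in these comparisons. Their median log2 difference was 0.50 in CBPE minus IPE (range -0.88 to 0.94), against 0.04 over all genes above a median. It was 0.11 in RPE minus IPE (-0.36 to 0.29), against 0.02, and -0.28 in RPE minus CBPE (-0.83 to 0.52), against -0.0020. In CBPE minus IPE, Hoxa11, Hoxb4, Hoxb6, Hoxc4 and Hoxc6 entered through CBPE alone, and 0.50 is the value of Hoxb6. In RPE minus CBPE, Hoxa3, Hoxa11, Hoxb6, Hoxc4 and Hoxc6 did so. With the dim signals set to the floor, these genes could only be higher in CBPE. The signs of both medians were therefore largely set by the filter and are no measure of direction. Probe sets of 1 gene with signals above 100 disagreed by a pooled SD of 0.49, 0.45 and 0.29 in the 3 comparisons. The comparisons share arrays and are not independent.

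The count of 0 in the comparisons with IPE rests on where the line is drawn. With the lines at 7.9, 20.2 and 16.6, the brightest absent controls, 5 HOX genes were called in CBPE against IPE, all with CBPE higher. They were Hoxb4, Hoxb6 and Hoxc4, and also Hoxb7 and Hoxc6 (here through another probe set), for which the CBPE signals of 11 and 13.3 were themselves under the line. In RPE against IPE, Hoxa13 was called. These counts compare with 22.53% and 17.68% of all genes called with the same lines. The lines of CBPE and RPE were more than 2-fold above that of IPE, so setting dim signals to them tilts calls away from IPE. The direction of these calls therefore rests in part on the lines. With the array medians made equal, Hoxa5 was called as higher in IPE than in CBPE, where its signal was set to the floor, and 18.22% of all genes were called.

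CBPE was the array on which most HOX probe sets had their highest signal, and it was also highest for most of the absent bacterial controls. The median signal of the 48 HOX probe sets was 2.85, 6.60 and 3.05 in IPE, CBPE and RPE. That of 44 probe sets for olfactory receptors, which are smell receptors of the nose, was 2.90, 6.35 and 3.55, and that of the 27 absent bacterial controls 1.5, 5.1 and 1.7. CBPE was highest for 31 of the 48 HOX probe sets (64.6%), 22 of the 44 (50%) and 15 of the 27 (55.6%), against 34.7% of all non-control probe sets. The olfactory receptors were chosen as a reference after the HOX values were seen. Of their 44 probe sets, 0, 2 and 1 were above the median in IPE, CBPE and RPE.

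**Figure D2:**
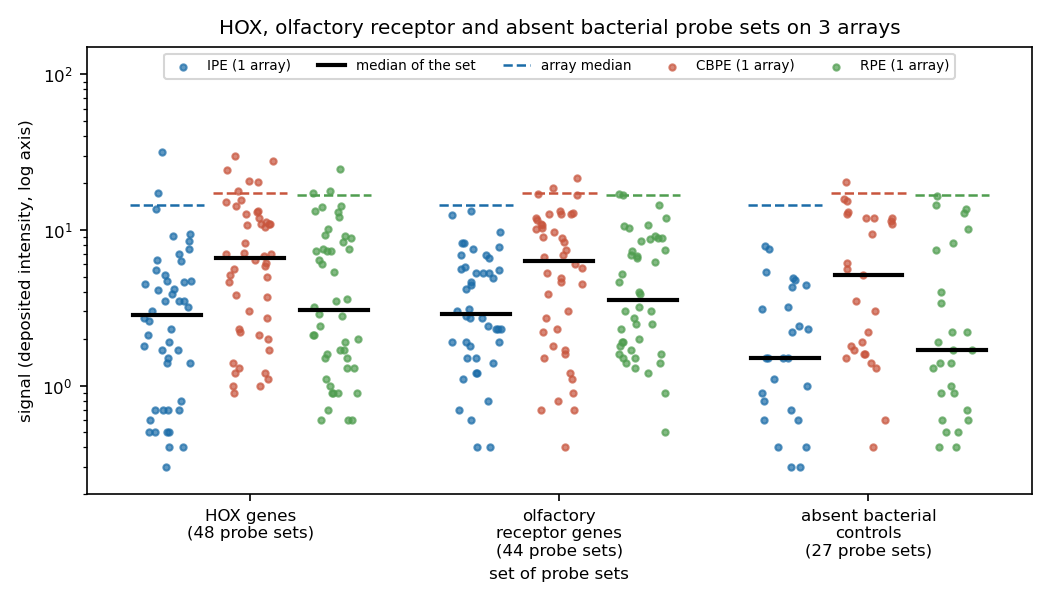
Signals (log axis, deposited linear intensity) of 48 HOX, 44 olfactory receptor and 27 absent bacterial control probe sets on the 3 arrays, 1 array per culture. Points are probe sets, black bars are the medians of each set and dashed lines the array medians, and in all 3 sets the CBPE bar is the highest, at 6.60, 6.35 and 5.10.

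Leukocyte and endothelial markers were also highest in CBPE. Over all genes, 63.1%, 65.5% and 64% were above the median in IPE, CBPE and RPE. Of 9 leukocyte markers, 3, 7 and 6 were above it. The summed signal of the 9 was 265.9, 2035 and 475.7, of which Lyz2 gave 130.9, 1288 and 231.6. Ptprc, the pan-leukocyte CD45 gene, was under the median on all arrays at 2.9, 13.3 and 0.6. Of 7 endothelial markers, 2, 6 and 3 were above it, with sums of 802.8, 1414 and 305.9, of which Emcn gave 745.1, 1115 and 211.2, and Vwf at 5.8, 5.0 and 1.1. The part of these cells and of the background of the CBPE array in the HOX signals there was not tested.

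Genes just outside the clusters were mostly above the line on the same arrays. For each cluster the 3 nearest protein-coding genes with a probe set were taken on either side, a rule chosen after the HOX values were seen. Of these 24 neighbours, 20, 20 and 18 (83.3%, 83.3% and 75%) were above the median of the IPE, CBPE and RPE array. Over all genes the shares were 63.1%, 65.5% and 64%. On all 3 arrays 17 neighbours were above it, against 56.3% of all genes. Skap2, a signalling adaptor gene next to the front end of HOX A, was at 192.7, 221.6 and 172.2. Mtx2, a mitochondrial import gene at the front end of HOX D, was at 400.4, 753.9 and 691.8, and Lnpk, beyond the rear end of that cluster, at 86.3, 108.1 and 93.1. The 3 neighbours under every median were Evx1, Evx2 and Calcoco2. Evx1 and Evx2 are homeobox genes at the rear ends of HOX A and HOX D that take part in rear body patterning, and were at 2.6, 1.9 and 3.6 and at 5.9, 4.1 and 4.2.

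**Figure D3:**
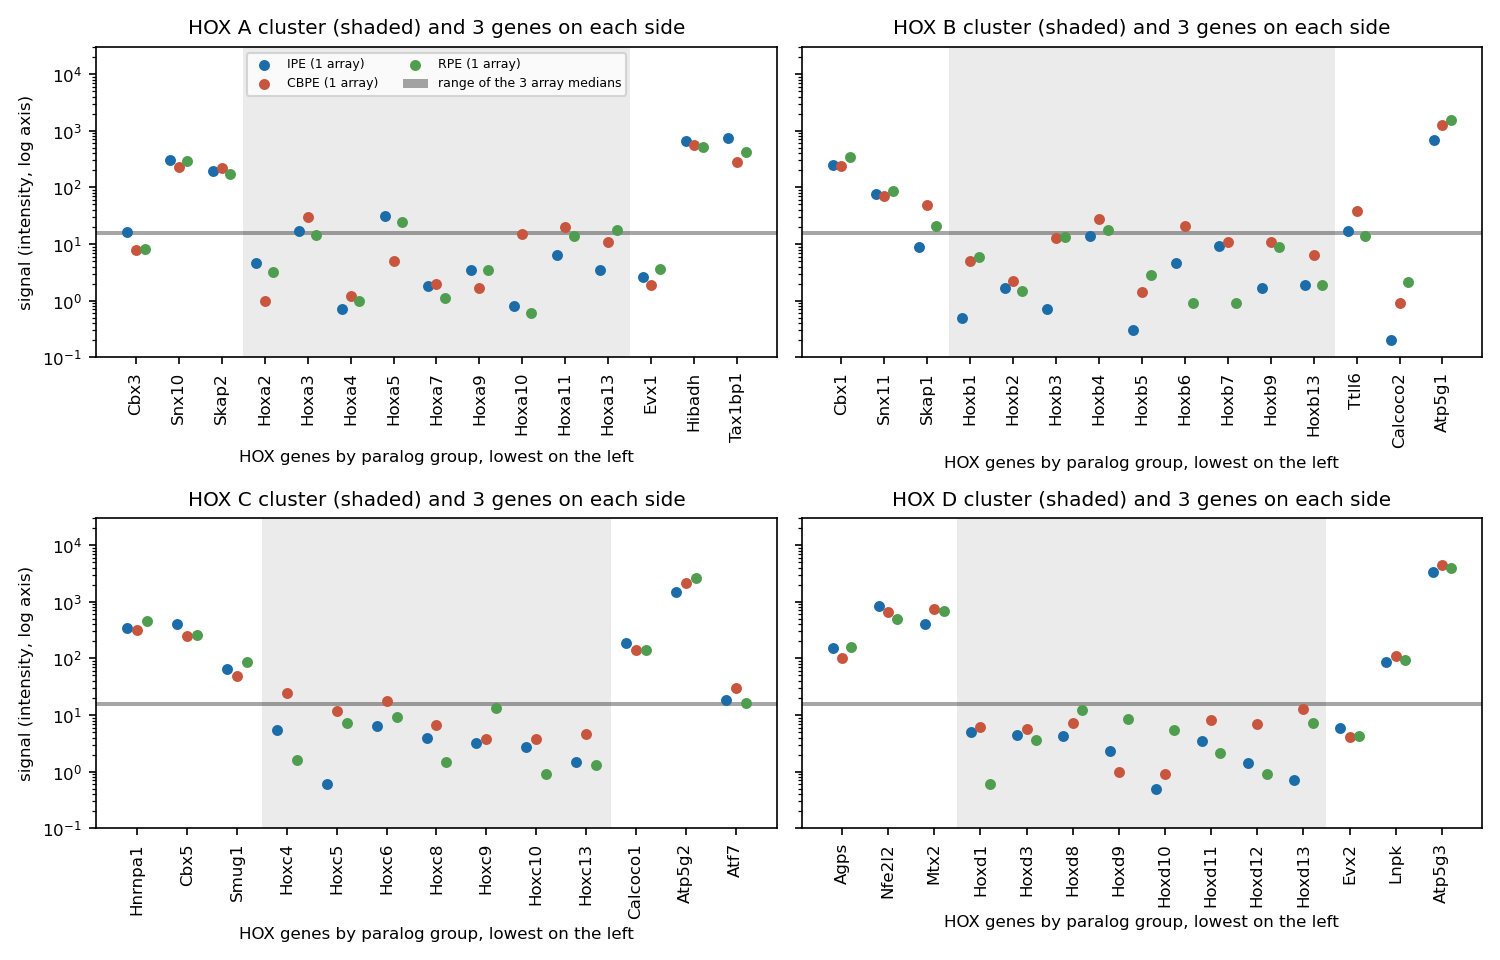
Signals (log axis, deposited linear intensity) of HOX genes (shaded) and of the 3 nearest measured protein-coding genes on each side of the 4 clusters, 1 array per culture. HOX genes without a probe set of their own are not drawn, the dark band spans the 3 array medians, and 17 of the 24 neighbours lie above the median of each array.

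Most cofactors and chromatin regulators of HOX genes were above the array medians. Of 8 TALE cofactors, 7, 6 and 6 were above the median in IPE, CBPE and RPE, against 63.1%, 65.5% and 64% of all genes. Pbx2 was at 246.6, 199.7 and 203.2 and Pbx3 at 307.3, 155.2 and 275.5. Meis1 was at 119.3, 24.3 and 4.4, so that IPE was 4.91-fold above CBPE and at least 7.10-fold above RPE. Meis2 was at 144.5, 30.7 and 40.5, with IPE 4.71-fold and 3.57-fold above the others. Of the 8, CBPE was at least 2-fold below IPE for 4 and RPE for 3, against 8.84% and 7.16% of all genes, and no cofactor differed 2-fold the other way. Besides acting with HOX proteins, Meis1 and Meis2 are known regulators of eye development.

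All 21 measured Polycomb and trithorax genes were above the median on all 3 arrays, against 56.3% of all genes. Eed, a core subunit of the complex that methylates histone H3 at silent clusters, was at 372.9, 448.3 and 328.2. Its partners Ezh2 and Suz12 were at 176.7, 81.7 and 83.3 and at 204.7, 51.4 and 112.0, and Rnf2, the ubiquitin ligase of the second Polycomb complex, at 617.3, 328.4 and 436.0. In CBPE 5 of the 21 were at least 2-fold lower than in IPE and none higher, against 8.84% and 8.28% of all genes. In RPE 3 were lower than in IPE and none higher, against 7.16% and 6.74%. The methyltransferase genes Kmt2a and Kmt2d, which act to keep HOX genes on, were at 172.5, 140.8 and 107.3 and at 213.6, 226.0 and 127.1.

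Some homeobox genes of the head were bright, but many others of the head, like most genes of the trunk, were under the line. Of 11 forebrain and eye field genes, 8, 5 and 6 were above the median in IPE, CBPE and RPE, against 63.1%, 65.5% and 64% of all genes. In CBPE and RPE this was a smaller share than of all genes. Pax6, the brightest of these genes in IPE and RPE, was at 897.7, 19.4 and 177.1. Otx2, which specifies the pigment epithelium, was at 329.6, 61.9 and 54.4 and Lhx2 at 305.8, 30.8 and 68.3, both highest in IPE. Of 13 genes of the cranial crest and periocular tissue, 6 were above the median on each array, a smaller share than of all genes. The median signal of these 13 was 9.6, 16.9 and 14.4, under the median of each array. Prrx1, a homeobox gene of mesenchyme, was at 720.5, 1280 and 1702, lowest in IPE, and Lmx1b at 408.9, 165.6 and 110.1, highest in IPE.

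Of 14 trunk, tail and limb genes, 2, 3 and 3 were above the median in IPE, CBPE and RPE, against 63.1%, 65.5% and 64% of all genes. The 9 that were under it on every array include Cdx1, Cdx2 and Cdx4, which act upstream of HOX genes in the trunk. Their highest signal was 16.0, for Cdx2 in CBPE. The genes above a median on any array were Meox1, Meox2, Tbx4, Pitx1 and Pax1. Tbx4 was at 15.4 in IPE, Pitx1 at 18.4 in RPE and Pax1 at 21.9 in CBPE. Meox1, a homeobox gene of somites also used in other mesenchyme, was at 16.6, 163.6 and 73.8, with CBPE 9.86-fold and RPE 4.45-fold above IPE. Meox2 was at 3.3, 37.4 and 73.5. The tendon markers Tnmd, Scx, Mkx and Fmod were also all higher in CBPE and RPE than in IPE. Among 10 fibroblast markers, CBPE was at least 2-fold above IPE for 6 and below it for 1, against 8.28% and 8.84% of all genes. RPE was so for 5 and 2, against 6.74% and 7.16%. The summed signals of these markers were 23477, 51319 and 37984, of which Col3a1 alone gave 6251, 13644 and 10440. Pdgfra, at 2020, 776.6 and 958.1, and the muscle gene Des, at 91.3, 28.5 and 32.4, were highest in IPE. The part of these cells in the Meox signals was not tested.

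**Figure D4:**
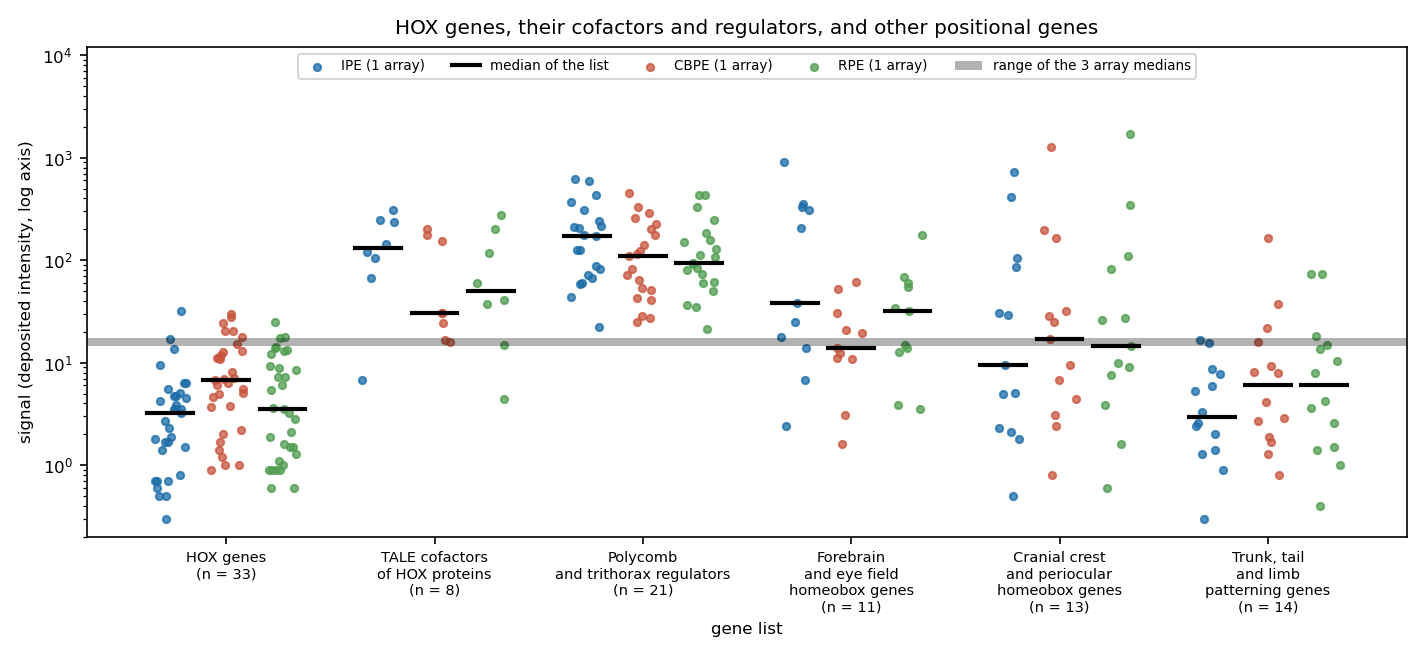
Signals (log axis, deposited linear intensity) of the 33 HOX genes and of 5 gene lists on the 3 arrays, 1 array per culture, with black bars for list medians and a grey band for the range of the 3 array medians. All 21 Polycomb and trithorax genes lie above the median on every array, whereas 25 HOX genes and 9 of 14 trunk genes lie under the median of every array.

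Retinoic acid, which switches on front HOX genes in the embryo, acts through the receptors and enzymes measured next. Of 14 such genes, 12, 10 and 9 were above the median in IPE, CBPE and RPE, against 63.1%, 65.5% and 64% of all genes. Rarb, a receptor that is itself a retinoic acid target, was at 678.2, 227.0 and 189.7, highest in IPE. The synthesis enzyme genes Aldh1a1 and Aldh1a2 were at 523.6, 1241 and 680.1 and at 578.7, 468.4 and 455.5. Crabp2, a carrier of retinoic acid to the nucleus, was at 447.0, 824.0 and 1333. Hoxb1, a known target in embryos, stayed under the median on all 3 arrays.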

How the data were processed

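RNA from 3 cultures was labelled with biotin and hybridised to 1 array each, from 1 µg of total RNA, per the labels' protocols. The deposited table holds 1 linear intensity per probe set and array. Which software summarised the probes is not given in the sources used here. On trimming 2% at each end, the mean intensity was 100.001 on every array. Symbols came from a platform annotation of 2016, updated through gene identifiers to the RefSeq table of GRCm38.p6, where 34754 of 34958 single-gene probe sets matched. A further 932 probe sets had several genes and 9160 were not listed, and neither group was used for names. Where a gene had several probe sets, the brightest by mean log2, floored at the array median, stood for it. No test or p-value is given, since each culture is 1 array. A printed fold over a dim signal uses the higher of that array's median and its brightest absent control. The named genes are every HOX gene above a median on any array and members of the lists. The rule per list was the 2 brightest members and up to 4 with a 2-fold difference. Not all genes that it picked are printed, and some further members were chosen after their values were seen. The HOX members, the lists and the rules were chosen with earlier results of these data known. Python 3.11.15, pandas 2.3.3 and numpy 2.4.6 were used. Promoter sequences are from RefSeq. The alternatives changed the floor, the normalization, the probe sets of a gene and the symbols, and 1, on probe sets of 2 HOX genes, was added after seeing the data.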

Additional observations from a re-analysis of the deposited data

How the results depend on the processing

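The values were recomputed under 9 alternatives, and counts not given below stayed within 1.5 times those reported. HOX genes above the line in IPE, CBPE and RPE numbered 1, 2 and 0 with the floor at the 60th percentile (all genes 54.66%, 57.18% and 55.71%) and 5, 4 and 3 with the brightest absent control as the line (73.34%, 62.22% and 64.05%). They numbered 0, 0 and 0 with a fixed floor of 100 (38.23%, 35.48% and 36.23%) and 0, 3 and 1 when probe sets of a gene were averaged (56.22%, 55.59% and 55.49%). Leaving out probe sets named as open to cross-matching, IPE had 1 (59.52%). HOX genes called at least 2-fold in CBPE and IPE numbered 5 with the absent control as the line (all genes 22.53%) and 1 with equal medians (18.22%), and in RPE and IPE 1 with the absent control as the line (17.68%). The median log2 difference in CBPE minus IPE was -0.081 with the 60th percentile and 1.10 with the absent control, and in RPE minus IPE 0.60 with the absent control. With the absent control the medians of all genes were 0.15 and 0.12. Its line is lowest in IPE, which tilts the differences of dim genes away from IPE. With equal medians the median of all genes above a median moved to -0.22 in CBPE minus IPE, against 0.24 for the HOX genes. HOX genes that passed the line in CBPE alone could only be positive in that difference. The median in RPE minus IPE changed sign under quantile normalization (-0.07), equal medians (-0.10) and the 60th percentile (-0.22). The SD between probe sets comes from single genes with signals above 100, so it sets no error on these medians of 1 to 8 dim genes. No median exists for the floor of 100. No paired analysis was possible because each culture has 1 array. Most HOX signals lay at or near background on every array, so whether a low level of a HOX transcript was present cannot be told from them.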
